A study of Homo sapiens with 12 samples.

Results

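The genes of the main cytosolic and mitochondrial heat shock chaperones, 10 in all, were followed in prostate cancer cells in which GALNT7 had been lowered or raised. The genes were HSP90AA1, HSP90AB1, HSPA8, HSPA1A, HSPA1B, HSPH1, DNAJB1, HSPB1, HSPD1 and HSPE1. They were chosen by name as the main members of the cytosolic HSP90, HSP70, HSP40 and small heat shock protein families and of the mitochondrial chaperonin. No measured value enters that rule, but earlier results of these data were known when the genes were chosen. All 10 have 1 identifier on the primary assembly among the 59424 identifiers of each table. Of the 10, 9 were listed above 0 in at least 1 library, and the same number passed the filter on low values in each cell line.

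RNA was sequenced from the prostate cancer cell lines CWR22RV1 and DU145. CWR22RV1 cells carried a lentiviral control shRNA (shControl) or a lentiviral shRNA against GALNT7 (GALNT7 KD). DU145 cells carried, also by lentivirus, a control ORF (OE control) or the ORF of GALNT7 (GALNT7 OE). All were stably transduced lines, with 3 biological replicates in each of 4 groups and 12 libraries in all. The sources do not say whether the replicates are separate transductions, so p-values measure the spread between these libraries. Values are normalised counts, the reads assigned to a gene divided by a size factor for the library. The 2 cell lines were scaled apart and differ in both background and construct, so that levels are compared only within a line and no difference between the 2 comparisons was tested.

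The targeted gene, GALNT7, an enzyme of O-linked glycosylation, averaged 999 ± 121.8 normalised counts (SD, n = 3) under shControl against 460.5 ± 53.67 under GALNT7 KD, and 963.8 ± 75.81 in OE control against 2181 ± 176.1 in GALNT7 OE cells. Both differences went the way of the labels (log2 fold change -1.11, limma adjusted p = 0.0051, and 1.18, limma adjusted p = 8e-05). Depth in CWR22RV1 was 21141983 to 22264533 reads in shControl and 18364512 to 20429381 reads in GALNT7 KD libraries, and normalised totals in DU145 were 22119113 to 22765440. The 3 epithelial markers summed to between 14746 and 17556 in CWR22RV1 and between 20909 and 23861 in DU145 libraries, with 2 of 3 lower in GALNT7 KD and 1 of 3 higher in GALNT7 OE. The 4 blood, endothelial and stromal markers summed to 149.2 to 168 in shControl and 157 to 234.9 in GALNT7 KD libraries. Only CD68 and COL1A1 were high enough to be tested there, and neither passed. In DU145 this sum was 2882 to 3179 in OE control and 1061 to 1235 in GALNT7 OE libraries, with 2 of 4 lower and PTPRC not tested. CD68 made up most of it, with a mean of 2675 in OE control and 1035 in GALNT7 OE libraries (log2 fold change -1.37, limma adjusted p = 1.5e-05). COL1A1 averaged 334.2 and 90.64 (-2.01, adjusted p = 0.0059). PTPRC, the defining blood cell marker, was at 2.098 or less in every library. The part of these marker differences in the chaperone values was not tested.

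Heat shock chaperones bind unfolded or partly folded proteins. In the cytosol, HSP70 proteins take up clients with the help of J-domain proteins, exchange factors release them, and HSP90 acts later on signalling proteins such as kinases and steroid hormone receptors. In mitochondria, HSPD1 forms the folding chamber and HSPE1 its lid. Many of these genes are induced by heat shock factors, which bind promoters at inverted repeats of a short unit, while the constitutive forms are abundant in unstressed cells.

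The binding element of heat shock factors was looked for in the 250 bases before each start site, since it is what many genes of the family have in common in their regulation. RefSeq promoters (GRCh38.p14) held 16 windows for the 10 genes. A 2-unit element, GAANNTTC or TTCNNGAA, was present in 8 of the 16 windows, of 8 genes, against 11.6% of all 35116 promoter windows. A 3-unit element, GAANNTTCNNGAA or TTCNNGAANNTTC, was present in 4 of the 16 windows, of 4 genes, against 0.441% of all windows. Each letter string was searched on both strands, and every 3-unit element contains a pair of overlapping 2-unit elements. The following 30-base runs show 1 stretch per gene, taken from the window with the most elements. It is the 3-unit element nearest to the start, or the nearest 2-unit element where there is none of 3, in capitals together with any element that overlaps it, on the gene's own strand from 5′ to 3′.

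HSP90AA1: ggagggttcTTCCGGAAGGTTCgggaggct
HSP90AB1: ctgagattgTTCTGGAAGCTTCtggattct
HSPA8: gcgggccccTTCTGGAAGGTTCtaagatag
HSPD1: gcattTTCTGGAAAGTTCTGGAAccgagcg
HSPA1A: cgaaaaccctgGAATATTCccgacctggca
HSPA1B: cgaaacccctgGAATATTCccgacctggca
DNAJB1: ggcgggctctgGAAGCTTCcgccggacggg
HSPB1: ccttaacgagaGAAGGTTCcagatgagggc

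These runs lie at chr14:102087112-102087141 (HSP90AA1, minus strand), chr6:44247822-44247851 (HSP90AB1, plus), chr11:123062171-123062200 (HSPA8, minus), chr2:197500061-197500090 (HSPD1, minus), chr6:31815426-31815455 (HSPA1A, plus), chr6:31827622-31827651 (HSPA1B, plus), chr19:14518426-14518455 (DNAJB1, minus) and chr7:76302480-76302509 (HSPB1, plus). The stretch in capitals starts 88 bases before the start site of its own window in HSP90AA1, 112 in HSP90AB1, 55 in HSPA8 and 245 in HSPD1. HSP90AA1, HSP90AB1 and HSPD1 also have windows of start sites further upstream, and those held none of these elements. In HSPD1 a pair of 3-unit elements overlap, so that 4 units follow each other. The HSPA1A and HSPA1B windows were 94.4% identical over their aligned bases. None of these letter strings was found in the single windows of HSPH1 and HSPE1, which says only that they are absent from those bases. HSPD1 and HSPE1 lie head to head on chromosome 2. All 30 bases of the HSPD1, HSPA8 and HSP90AA1 runs are covered by exons in GENCODE, counted for any gene on either strand. The HSPD1 run lies within the bounds of HSPE1. Whether the start sites of the annotations differ was not tested. A match is a description of letters and not a measured binding site.

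In GALNT7 KD cells, 3 of the 9 tested chaperone genes were higher and none lower, against 5.28% of all 17906 tested genes that were higher and 3.79% that were lower. The genes were HSP90AA1, HSP90AB1 and HSPB1. In GALNT7 OE cells, 7 of 9 were higher and none lower by the identifiers on the primary assembly, where 22.9% of all 18705 tested genes were higher and 20.5% were lower. With a second HSPA1B identifier added, which held more counts than the primary one in every library, the HSPA1B sum was lower there (log2 fold change -0.82, limma adjusted p = 0.00014). This sum may not hold all copies of the gene, and the transcripts of HSPA1A and HSPA1B share most of their sequence. Of the 7 genes that passed, HSPD1 and HSPE1 had the highest log2 fold changes, and HSPB1 and the primary HSPA1B identifier did not pass. The median log2 fold change of the tested members was 0.17 in GALNT7 KD, with a range of 0.04 to 0.37, and 0.46 in GALNT7 OE, with a range of -1.82 to 1.20, while the median of all tested genes was -0.006278 and -0.01143. The treated libraries lay above every control library for 4 members in GALNT7 KD (16.9% of all tested genes) and for 7 members in GALNT7 OE (28.2%). With 3 libraries against 3, the smallest p that an exact permutation test can give for 1 gene is 0.1, and calls therefore rest on limma, which shares the estimate of the spread over all genes.

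**Figure D1:**
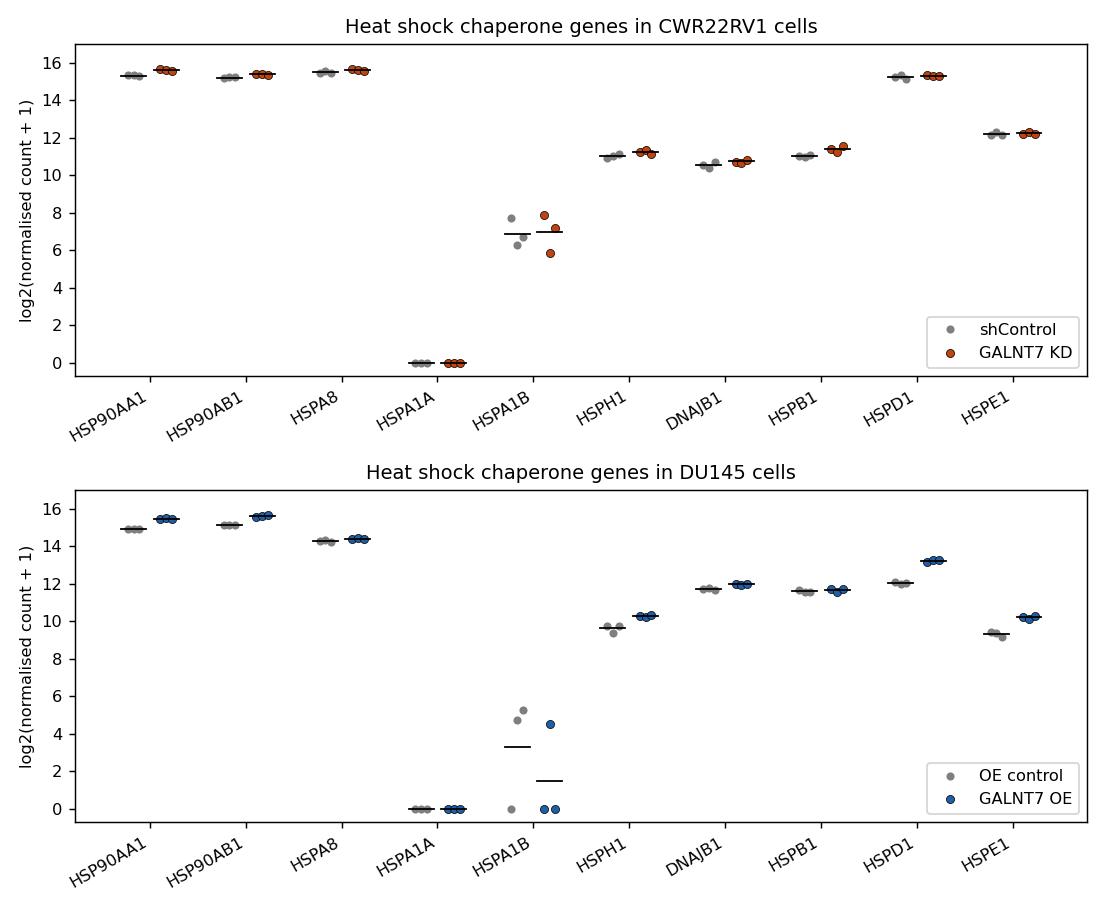
Each point is 1 library, with log2(normalised count + 1) on the y axis and the 10 genes on the x axis, in CWR22RV1 (top) and DU145 (bottom), and black lines mark group means of 3 libraries. HSP90AA1, HSP90AB1 and HSPA8 sit high in both lines, HSPA1A is at 0 in all libraries, and HSPD1 and HSPE1 stand apart between OE control and GALNT7 OE.

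Together the 10 genes took 0.860% to 0.910% of the normalised counts of the shControl libraries and 0.960% to 1.01% of the GALNT7 KD libraries. In DU145 the share was 0.450% to 0.457% in OE control and 0.604% to 0.618% in GALNT7 OE libraries. The groups did not overlap in either line. These are shares of polyadenylated RNA, and more molecules per cell and more cells with the gene on cannot be told apart in bulk RNA.

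Set per kilobase of exon, the order of the genes differed between the lines. In shControl cells HSP90AB1 led with 12723 ± 158.3 normalised counts per kb (SD, n = 3). HSPA8 followed with 9483 ± 301 and HSPD1 with 9151 ± 687, and the libraries of this pair overlapped. HSP90AA1 (7763), HSPE1 (2373), HSPB1 (1286), DNAJB1 (405.1), HSPH1 (251.7) and HSPA1B (51.01) came next, in normalised counts per kb, with no overlap between neighbours. In OE control cells HSP90AB1 led again, with 12343 ± 28.23 normalised counts per kb, ahead of HSP90AA1 (6010), HSPA8 (4156) and HSPB1 (1904). HSPD1 came next at 998.4 ± 44.31 and overlapped with DNAJB1 at 928 ± 41.76, followed by HSPE1 (325.7), HSPH1 (95.74) and HSPA1B (8.31). HSPA1A was at 0 in both lines. The places of HSPA1A and HSPA1B rest on their primary identifiers, and the second identifier of HSPA1B held more counts than the primary in every library. Lengths are those of all annotated exons merged, which can be longer than any single transcript, and the order depends on them. Without division by length, the shControl means were 45983 for HSPA8, 40742 for HSP90AA1, 38844 for HSPD1 and 37914 for HSP90AB1. In OE control cells HSP90AB1 also led on that scale, with 36781, ahead of HSP90AA1 (31541) and HSPA8 (20153).

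HSP90AA1 (ENSG00000080824, chr14:102080738-102139699, GRCh38, minus strand) encodes the inducible cytosolic HSP90. Its normalised counts were 41299, 41215 and 39713 in the shControl libraries and 51421, 49348 and 47512 in the GALNT7 KD libraries. All 3 GALNT7 KD libraries were above the controls, by 1.213-fold (log2 fold change 0.28, SE 0.0352, limma adjusted p = 0.0072). In DU145 the counts were 31479, 31440 and 31703 in OE control and 45860, 46807 and 44865 in GALNT7 OE. The groups were again apart, by 1.453-fold (log2 fold change 0.54, SE 0.0250, limma adjusted p = 1.1e-05).

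HSP90AB1 (ENSG00000096384, chr6:44246166-44253888, plus strand) encodes the constitutive cytosolic HSP90. The shControl libraries held 37386, 38063 and 38293 normalised counts and the GALNT7 KD libraries 43971, 42657 and 41379. This was a 1.125-fold difference without overlap (log2 fold change 0.17, SE 0.0295, limma adjusted p = 0.019). The call did not hold without GALNT7 KD replicate 1 or 2 or any 1 of the shControl replicates, where the limma adjusted p was 0.052 to 0.079 at a log2 fold change of 0.15 to 0.18. In DU145 the values were 36864, 36783 and 36696 in OE control and 49004, 50629 and 51920 in GALNT7 OE, which is 1.373-fold (log2 fold change 0.46, SE 0.0274, limma adjusted p = 3.4e-05).

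The log2 ratio of HSP90AA1 to HSP90AB1, which compares the inducible with the constitutive form within a library, was 0.14, 0.11 and 0.05 in shControl and 0.23, 0.21 and 0.20 in GALNT7 KD libraries. The libraries did not overlap and the means differed by 0.11 (exact permutation test, two-sided, p = 0.1, which is the smallest possible). In DU145 the ratio was -0.23, -0.23 and -0.21 in OE control and -0.10, -0.11 and -0.21 in GALNT7 OE, a difference of 0.08 (exact permutation p = 0.1). Here the third GALNT7 OE library lay next to the controls.

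HSPA8 (ENSG00000109971, chr11:123057489-123063230, minus strand) encodes the constitutive cytosolic HSP70, HSC70. It was listed at 45616, 47591 and 44742 in shControl and 51266, 50547 and 47909 in GALNT7 KD libraries. The groups did not overlap but the difference missed the threshold (log2 fold change 0.12, 95% confidence interval 0.03 to 0.20, limma adjusted p = 0.094). In DU145 it was listed at 20147, 20855 and 19457 in OE control and 21458, 22282 and 21447 in GALNT7 OE libraries. This difference passed (log2 fold change 0.11, SE 0.0354, limma adjusted p = 0.044), but did not when the libraries were rescaled to their 75th percentile (log2 fold change 0.01, adjusted p = 0.84), nor without any 1 library other than OE control replicate 2 (adjusted p 0.062 to 0.14). The rescaling moved the median of all genes by about the same amount, to -0.1084, and the share of calls that were higher from 52.75% to 41.64%.

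HSPA1A (ENSG00000204389, chr6:31815464-31817946, plus strand) and HSPA1B (ENSG00000204388, chr6:31827735-31830255, plus strand) encode the stress-inducible HSP70, and the transcripts of either share most of their sequence with the other. Of the 31-base words in HSPA1A transcripts, 73.59% also occur in HSPA1B. HSPA1A was listed at 0 in all 12 libraries. HSPA1B was listed at 207.2, 76.92 and 101.6 in shControl and at 237.8, 56.54 and 145.4 in GALNT7 KD libraries. The groups overlapped widely (log2 fold change 0.09, 95% confidence interval -1.28 to 1.46, limma adjusted p = 0.94), and the sign turned when single libraries were left out, with values of -0.37 to 0.66. In DU145 HSPA1B was listed at 0, 25.57 and 37.28 in OE control and at 0, 22.18 and 0 in GALNT7 OE libraries (limma adjusted p = 0.44).

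A second identifier for HSPA1B, ENSG00000224501, belongs to a copy of the gene on an alternative haplotype of the major histocompatibility region, and held more reads. It had 1717, 1711 and 1775 normalised counts in shControl and 1586, 1456 and 1624 in GALNT7 KD libraries (log2 fold change -0.16, SE 0.0632, limma adjusted p = 0.17). In DU145 it had 2676, 2876 and 2941 in OE control and 1724, 1575 and 1516 in GALNT7 OE libraries. The GALNT7 OE libraries were all lower (log2 fold change -0.82, SE 0.0679, limma adjusted p = 0.00014). With both HSPA1B identifiers summed, the log2 fold change was -0.13 in GALNT7 KD (adjusted p = 0.36) and -0.82 in GALNT7 OE (adjusted p = 0.00014). GENCODE 29 places 8 of the 10 HSPA1A transcripts and 7 of the 8 HSPA1B transcripts outside the primary assembly, and every transcript of the other 8 members on it. The sum over all copies of the inducible HSP70 genes is therefore not given by these values, and a listing of 0 for HSPA1A does not show that the gene was silent.

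HSPH1 (ENSG00000120694, chr13:31134974-31162388, minus strand) encodes HSP105, an exchange factor for HSP70. Its values in CWR22RV1 were 1948, 2122 and 2265 in shControl and 2413, 2638 and 2264 in GALNT7 KD libraries, which overlap (log2 fold change 0.21, 95% confidence interval 0.01 to 0.40, limma adjusted p = 0.17). In DU145 they were 870.5, 668.8 and 870.5 in OE control and 1235, 1191 and 1282 in GALNT7 OE libraries. The GALNT7 OE libraries were 1.549-fold higher and did not overlap with the controls (log2 fold change 0.63, SE 0.113, limma adjusted p = 0.0041).

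DNAJB1 (ENSG00000132002, chr19:14514770-14529770, minus strand) encodes HSP40, a J-domain protein that stimulates the HSP70 ATPase. It was at 1488, 1330 and 1645 in shControl and 1682, 1630 and 1827 in GALNT7 KD libraries, with overlap (log2 fold change 0.21, 95% confidence interval -0.01 to 0.43, limma adjusted p = 0.21). In DU145 it was at 3413, 3558 and 3251 in OE control and 4136, 3913 and 4127 in GALNT7 OE libraries, without overlap (log2 fold change 0.25, SE 0.0510, limma adjusted p = 0.0068). After quantile normalisation the latter was 0.15 with an adjusted p of 0.059.

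HSPB1 (ENSG00000106211, chr7:76302544-76304295, plus strand) encodes HSP27, a small heat shock protein that holds unfolded proteins without using ATP. In CWR22RV1 it had 2115, 2034 and 2154 normalised counts in shControl and 2717, 2442 and 3014 in GALNT7 KD libraries. It showed the highest fold change among the members in this line, 1.292-fold (log2 fold change 0.37, SE 0.0829, limma adjusted p = 0.041). The call did not hold without any 1 library other than GALNT7 KD replicate 2 (adjusted p 0.061 to 0.12), nor after quantile normalisation (log2 fold change 0.34, adjusted p = 0.063). In DU145 it had 3251, 3050 and 3035 in OE control and 3354, 3057 and 3367 in GALNT7 OE libraries, which overlap (log2 fold change 0.07, 95% confidence interval -0.07 to 0.20, limma adjusted p = 0.39). The sign turned to -0.03 under quantile normalisation and under rescaling to the 75th percentile.

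HSPD1 (ENSG00000144381, chr2:197486581-197516737, minus strand) encodes HSP60, the mitochondrial chaperonin. Its level in CWR22RV1 was 38851, 41757 and 35924 in shControl and 41291, 40790 and 39731 in GALNT7 KD libraries, and the groups overlapped (log2 fold change 0.07, 95% confidence interval -0.06 to 0.19, limma adjusted p = 0.49). In DU145 it was 4446, 4079 and 4189 in OE control and 9352, 9958 and 9821 in GALNT7 OE libraries. The 3 GALNT7 OE libraries were all above the controls, and the means differed 2.291-fold (log2 fold change 1.20, SE 0.0475, limma adjusted p = 7e-06).

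HSPE1 (ENSG00000115541, chr2:197499994-197503457, plus strand) encodes HSP10, the co-chaperonin. In CWR22RV1 it was at 4586, 4977 and 4513 in shControl and 4773, 4994 and 4728 in GALNT7 KD libraries (log2 fold change 0.04, 95% confidence interval -0.08 to 0.17, limma adjusted p = 0.66). In DU145 it was at 685.3, 673.9 and 572.3 in OE control and 1219, 1138 and 1276 in GALNT7 OE libraries. The groups did not overlap and differed 1.883-fold (log2 fold change 0.91, SE 0.0920, limma adjusted p = 0.00031).

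The chaperonin and its lid are transcribed from neighbouring starts, and their log2 ratio was taken within each library. For HSPE1 to HSPD1 it was -3.08, -3.07 and -2.99 in shControl and -3.11, -3.03 and -3.07 in GALNT7 KD libraries (difference -0.02, exact permutation p = 0.6). In OE control it was -2.70, -2.60 and -2.87, and in GALNT7 OE -2.94, -3.13 and -2.94. All GALNT7 OE libraries were below the controls (difference -0.28, exact permutation p = 0.1, the smallest this test can give here).

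**Figure D2:**
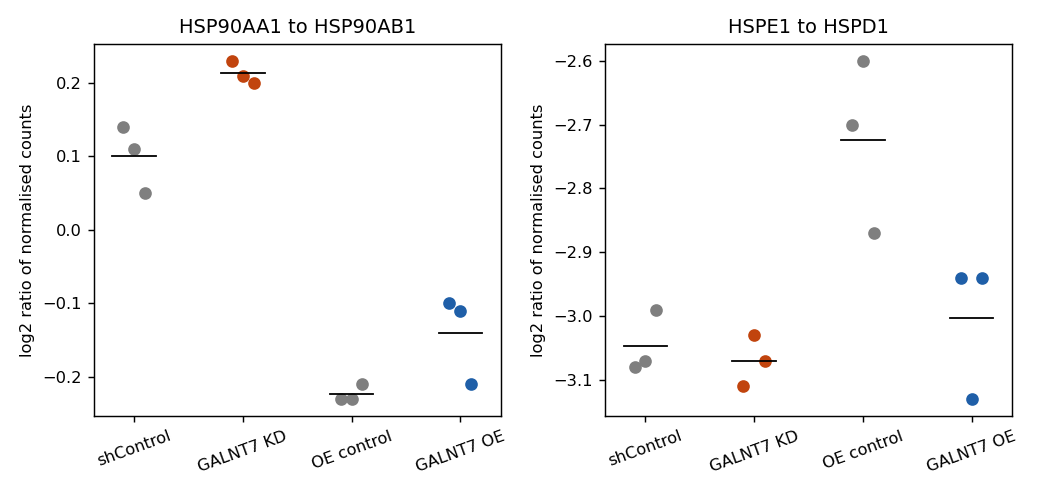
The y axis is the log2 ratio of normalised counts in a library, each point is 1 library and black lines are group means of 3, for HSP90AA1 to HSP90AB1 (left) and HSPE1 to HSPD1 (right). The HSP90 ratio is higher by 0.11 in GALNT7 KD and by 0.08 in GALNT7 OE, and the HSPE1 to HSPD1 ratio is lower by 0.28 in GALNT7 OE.

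**Figure D3:**
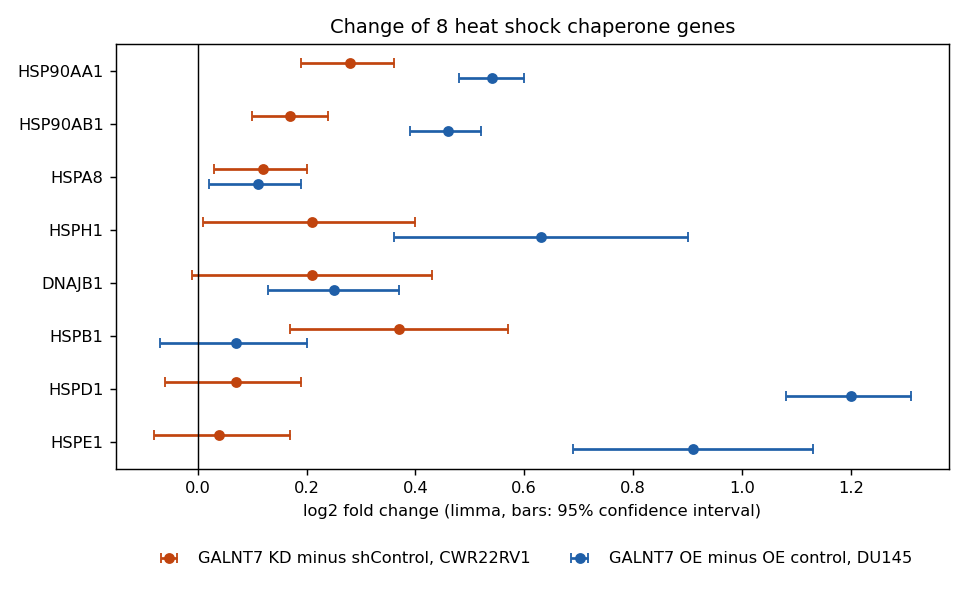
The x axis is the log2 fold change of treated over control libraries, points are limma estimates from 3 against 3 libraries and bars their 95% confidence intervals, for GALNT7 KD (orange) and GALNT7 OE (blue). HSPA1A, at 0 throughout, and HSPA1B, whose interval runs from -6.00 to 2.37 in DU145, are left out. The intervals of HSPD1 and HSPE1 lie above 0.69 in GALNT7 OE and include 0 in GALNT7 KD.

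Several members have near copies elsewhere in the genome, to which reads could have been assigned. Of the 31-base words of their transcripts, 30.93% (HSP90AA1), 35.69% (HSP90AB1), 26.98% (HSPA8), 34.63% (HSPD1), 27.49% (HSPE1) and 16.33% (HSPB1) also occur in transcripts of other genes, against 5.109% for DNAJB1 and 0.2967% for HSPH1. The leading copies held few counts, with at most 18.13 for HSP90AA2P, 33.57 for HSP90AB3P and 15.41 for HSPD1P1 in any library. HSPB1P1 was listed at 289.3 to 474.1 and did not pass the test in either line (limma adjusted p = 0.58 and 0.72). The read-through gene HSPE1-MOB4 was at 146.1 to 172.8 in OE control and 196.4 to 282.8 in GALNT7 OE libraries (log2 fold change 0.55, limma adjusted p = 0.028), in the same direction as HSPE1.

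The chaperone system around these genes was described with 9 lists of 79 genes. In GALNT7 KD cells 11 of the 70 tested list genes were higher and 4 lower, which is 15.71% and 5.714%, against 5.28% and 3.79% of all tested genes. The count of 11 dropped to 0 without GALNT7 KD replicate 1, to 1 without shControl replicate 1 or 3, to 4 without shControl replicate 2, and to 6 and 7 without GALNT7 KD replicates 2 and 3. The count of 4 dropped to between 0 and 2 without any 1 library. All 14 list genes named below as called in GALNT7 KD lost their calls in at least 1 fit without 1 library. DNAJB5, UNC45A, PTGES3 and CCT2 lost theirs in all 6 such fits. In GALNT7 OE cells 42 of 69 tested list genes were higher and 7 lower, which is 60.87% and 10.14%, against 22.9% and 20.5% of all tested genes. The same shares of all tested genes are the background for the count of each list below.

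**Figure D4:**
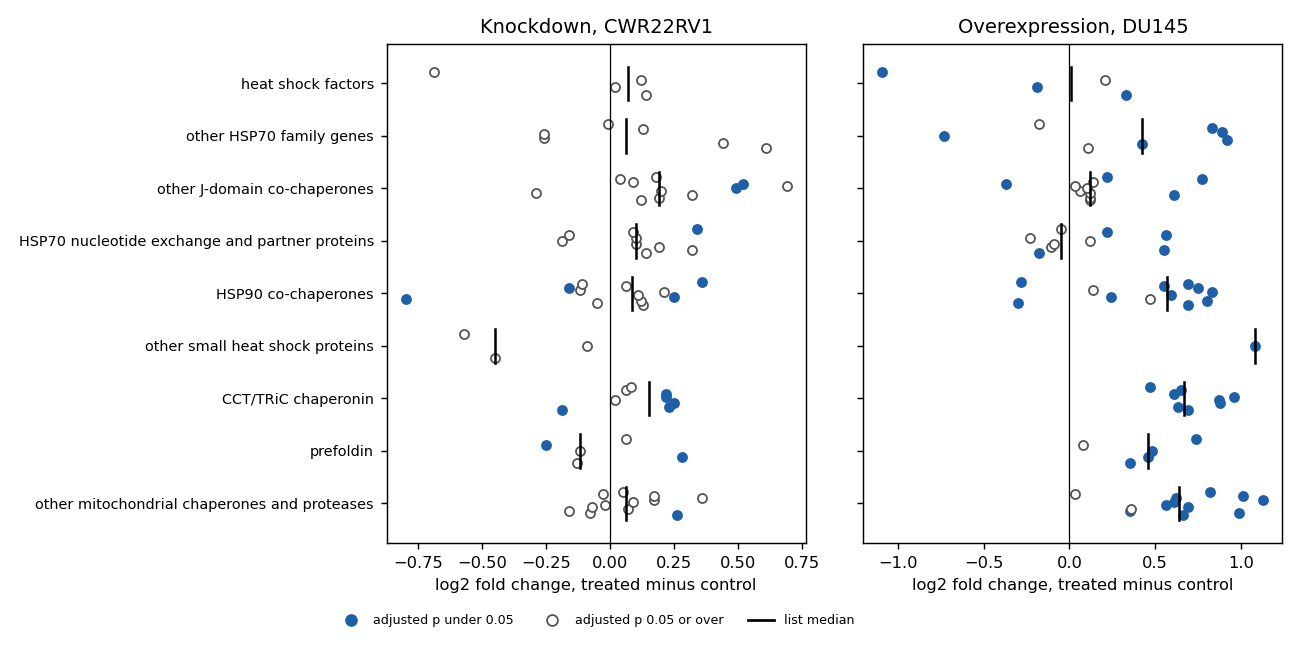
Each point is 1 gene of a chaperone list, placed by its log2 fold change (x axis) in the knockdown (left) and overexpression (right) comparison, filled where the limma adjusted p is under 0.05, with a black line at the median of each list. All 8 genes of CCT/TRiC and 10 of 12 mitochondrial genes are filled and right of 0 in DU145, where their medians are 0.67 and 0.64.

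The list of heat shock factors gave no call in GALNT7 KD (0 of 4) and 1 higher and 2 lower of 4 in GALNT7 OE. Of all tested genes, 22.9% were higher and 20.5% lower in GALNT7 OE. HSF1, the main stress-activated factor, averaged 1516 ± 41.8 (SD, n = 3) under shControl and 1538 ± 114 under GALNT7 KD (log2 fold change 0.02, limma adjusted p = 0.90), and its sign turned under quantile normalisation. In DU145 it fell from 2059 ± 131.9 to 1799 ± 46.78 (log2 fold change -0.19, limma adjusted p = 0.044), a call that was lost in 5 of the 6 fits without 1 library, with adjusted p up to 0.13. HSF2, a factor of development and stress, did not pass in either line (0.12, adjusted p = 0.56, and 0.21, adjusted p = 0.11, on the log2 scale). HSF4 went from 404 under shControl to 246.6 under GALNT7 KD, which missed the threshold (log2 fold change -0.69, limma adjusted p = 0.067). In DU145 it went from 416.6 to 193.6 (log2 fold change -1.09, limma adjusted p = 0.0021). HSBP1, a small protein that binds heat shock factors, was higher there (0.33, adjusted p = 0.0015). Message levels do not measure whether a factor is active.

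Among the partners of HSP70, the other HSP70 family genes gave no call in GALNT7 KD (0 of 6) and 4 higher and 1 lower of 7 in GALNT7 OE. The HSP110-type gene HSPA4 went from 2914 to 5401 normalised counts in DU145 (log2 fold change 0.89, limma adjusted p = 2.5e-05), HSPA4L rose by 0.83 and HSPA14, a ribosome-associated HSP70, by 0.92 on the log2 scale. HSPA2 fell by 0.73. Of 102 gene names, HSPA14 alone did not have a single match in GENCODE, and its value is that of 1 identifier. Of 11 other J-domain genes, 2 were higher in GALNT7 KD, DNAJB2 (0.49, limma adjusted p = 0.021) and DNAJB5 (0.52, adjusted p = 0.049). Both calls were lost without single libraries (adjusted p up to 0.085 and 0.14). In GALNT7 OE, 3 of 11 were higher and 1 lower, a share of higher genes near the 22.9% of all tested genes. These were the ribosome-associated DNAJC2 (0.77), DNAJA4 (0.61) and DNAJC7 (0.22), and DNAJB5 with -0.37. DNAJA4 and DNAJC7 lost their calls without 1 library (adjusted p up to 0.051 and 0.10).

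Exchange factors and other HSP70 partners gave 1 call of 9 in GALNT7 KD, the ubiquitin ligase STUB1 (log2 fold change 0.34, limma adjusted p = 0.028). That count is near the 9.064% of all tested genes called there, and the call was lost without single libraries (adjusted p up to 0.097). In GALNT7 OE 3 were higher, BAG2 (0.55), HSPBP1 (0.56) and ST13 (0.22), and BAG1 was lower (-0.18, adjusted p = 0.043). Of all tested genes, 22.9% were higher and 20.5% lower there. The calls of BAG1 and HSPBP1 were lost without single libraries, with adjusted p up to 0.13 and 0.091. ST13 kept its call in every fit without 1 library. It lost the call under quantile normalisation, rescaling to the 75th percentile and eBayes without trend. The list had a median of -0.05 in GALNT7 OE.

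HSP90 co-chaperones were called in both directions in GALNT7 KD, with 2 higher and 2 lower of 12. FKBP5, an immunophilin, rose by 0.25 and the myosin chaperone UNC45A by 0.36 on the log2 scale. FKBP4, the related immunophilin, fell from 10163 to 5871 normalised counts (log2 fold change -0.80, limma adjusted p = 0.012), and PTGES3, the co-chaperone p23, fell by 0.16. In GALNT7 OE 8 were higher and 2 lower. PTGES3 went from 6788 to 11418 (0.75, limma adjusted p = 1e-05), PPID by 0.83 and CHORDC1 by 0.80 on the log2 scale, while the kinase-targeting CDC37 (-0.30) and UNC45A (-0.28) were lower. UNC45A in GALNT7 OE lost its call without 1 library (adjusted p up to 0.052).

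The 4 list genes that were lower in GALNT7 KD, FKBP4, PTGES3, CCT2 and PFDN5, all lie on chromosome 12. The 922 tested genes of that chromosome had a median log2 fold change of -0.28 in GALNT7 KD, and 0.07 over 940 genes in GALNT7 OE. No member of the 10 is on chromosome 12. The part of the chromosome in these 4 values was not tested.

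CCT/TRiC, the cytosolic chaperonin that folds actin and tubulin, had 4 genes higher and 1 lower of 8 in GALNT7 KD. CCT3 (0.23), CCT4 (0.25) and CCT6A (0.22) were higher, with limma adjusted p of 0.013, 0.021 and 0.017, and CCT2 was lower (-0.19, adjusted p = 0.046). In GALNT7 OE all 8 were higher. CCT5 went from 9222 to 16820 normalised counts (log2 fold change 0.87, limma adjusted p = 9.3e-06), CCT6A from 4756 to 9244 (0.96) and CCT4 from 3343 to 6151 (0.88). Prefoldin, which hands clients to CCT/TRiC, gave PFDN2 higher (0.28) and PFDN5 lower (-0.25) of 5 tested in GALNT7 KD. In GALNT7 OE 4 of 5 were higher, led by VBP1 (0.74), PFDN4 (0.48) and PFDN2 (0.46). PFDN4 lost its call without single libraries (adjusted p up to 0.091).

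Among the other mitochondrial chaperones and proteases, AFG3L2, a subunit of an inner membrane protease, was the 1 gene of 12 that passed in GALNT7 KD (0.26, limma adjusted p = 0.030). That count is near the 9.064% of all tested genes called there, and the call was lost without single libraries (adjusted p up to 0.11). In GALNT7 OE 10 of 12 were higher and none lower. The mitochondrial HSP70 gene HSPA9 went from 4650 to 9367 normalised counts (log2 fold change 1.01, limma adjusted p = 1e-05), its exchange factor GRPEL2 from 350.2 to 767 (1.13, adjusted p = 7.9e-05) and the disaggregase CLPB from 431.6 to 858 (0.99, adjusted p = 8.6e-05). These log2 fold changes stand beside 1.20 for HSPD1 and 0.91 for HSPE1.

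Small heat shock proteins other than HSPB1 were mostly low. In GALNT7 KD 3 of 7 were tested and none passed, and in GALNT7 OE only HSPB6 was tested, at 9.891 and 21.69 normalised counts (1.08, limma adjusted p = 0.020), a call that was lost in 4 of the 6 fits without 1 library (adjusted p up to 0.064). HSPB6, named here after its values were seen, was at 6629 ± 85.55 in shControl and 6218 ± 180.2 in GALNT7 KD cells (-0.09, adjusted p = 0.20).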

How the data were processed

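Polyadenylated RNA was sequenced with a stranded kit. The authors deposited the signal as normalised counts, 1 table per cell line. The submitters' processing notes name FastQC, Salmon, DESeq2, R 3.5.3 and hg38; versions of the others, and the annotation, are not given in the sources used here. Names, positions and exon lengths were taken from GENCODE 29. In CWR22RV1, 100% of values were whole reads within 0.01 read once the size factor was removed; recovery was not accepted for all DU145 libraries. Members and lists were chosen with earlier results of these data known. Each line was fitted with limma 3.58.1 (trend) in R 4.3.3 after adding 1 to each normalised count and taking log2, with genes averaging 5 or more kept, with Benjamini-Hochberg adjustment at 0.05, and tested on simulated data. Changes of low genes are understated on this scale. Ratios were tested with two-sided exact permutation. Named genes were the members, GALNT7, HSF1, HSF2 and, per list and direction, up to 3 called genes with the largest change and a mean of at least 50. Alternatives were other pseudocounts, filters and scalings, eBayes without trend, the replicate block, each library left out, summed haplotype identifiers, and edgeR 4.0.16 and DESeq2 1.42.0 on recovered reads. No pair of replicates in a group agreed within sampling noise, which in DU145 rests on the read recovery not accepted for all libraries. Correlations of the deviations of same-numbered libraries were all under 0.1, at -0.011, 0.0747 and -0.00568 in CWR22RV1 and 0.0432, 0.0428 and 0.0159 in DU145, so the replicate numbers were not taken as pairs. The values of 1 marker list are not reported here.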

Additional observations from a re-analysis of the deposited data

How the results depend on the processing

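In GALNT7 OE, HSP90AA1, HSP90AB1, HSPH1, HSPD1 and HSPE1 stayed past the threshold under all 15 alternatives, and 5 to 8 members did in all. The count of 8, with haplotype identifiers summed, includes HSPA1B as lower (-0.82, adjusted p = 0.00014). Calls in GALNT7 KD were less stable. The 3 members past the threshold became 0 under eBayes without trend, 1 with no filter on low values, and 1 to 2 without 1 library (1 without GALNT7 KD replicate 1 or any shControl replicate). HSP90AA1 was lost only under eBayes without trend (adjusted p = 0.084). Of all genes, 1623 passed in GALNT7 KD, 2666 with DESeq2, 1546 with edgeR, 996 under eBayes without trend and 525 to 1332 without 1 library. Of the list genes, 11 higher and 4 lower became 1 and 1 under eBayes without trend and ranged from 0 to 7 and 0 to 2 without 1 library; lower calls were 7 with DESeq2 and 2 with no filter. With the replicate block the counts in GALNT7 KD were 1002 genes, 5 and 2 list genes and 2 members; HSP90AB1 (adjusted p = 0.053) and, in GALNT7 OE, HSPA8 (0.060) lost their calls. In DU145 each library correlated best with its own number, as a hint from the data only. Signs turned for HSPA1B in GALNT7 KD (-0.13 with identifiers summed, -0.37, -0.21, -0.02 and -0.01 among the fits without 1 library, up to 0.66), HSPB1 in GALNT7 OE (-0.03) and HSF1 in GALNT7 KD (-0.01 under quantile normalisation, -0.00 under rescaling to the 75th percentile, -0.04 and -0.00 without 1 library). Without 1 library the ratio of HSPE1 to HSPD1 in GALNT7 KD ranged from -0.04 to 0.00 and that of HSPA1A plus HSPA1B to HSPA8 from -0.47 to 0.55, around -0.03 (-0.25 with identifiers summed). In GALNT7 OE the latter was -1.93 (exact permutation p = 0.2), with 3 libraries listed at 0 for both genes, from -3.59 to -0.94 without 1 library and -0.93 with identifiers summed. The causes were not tested, beyond the fewer libraries of the fits without 1 library. edgeR and DESeq2 were not run on DU145.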
